A study of Mus musculus with 778 samples.

Results

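From 23201 genes counted in single mouse oocytes, 223 were taken that reached a minimum level in the first stage of oocyte growth, GO1. All of them fell at least 2-fold from GO1 to the second stage, GO2. They were chosen on their level in these stages. Unique molecular identifiers (UMIs), the tags that count single cDNA molecules, of all cells in a stage were added up gene by gene and scaled to a total of 1000000 per stage, in counts per 1000000 (CPM). A gene was taken when it had at least 10 CPM in GO1 and at most 1/2 of that in GO2, and 7283 genes reached 10 CPM in GO1. The fall itself is therefore how the genes were picked and not a test. The number of genes equals the number of cells, 223, by coincidence.

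Oocytes of the mouse wait in primordial follicles, start to grow when the follicle is recruited and store the mRNAs that the egg and early embryo will use. Growth is controlled by an exchange of signals with granulosa cells, in which the receptor Kit on the oocyte binds Kit ligand made by the follicle, and it ends when transcription is silenced. Oocytes came from ovaries of wild type ICR mice, an outbred strain, without treatment. Non-growing oocytes (NGOs, under 20 µm in diameter) were taken from mice of 3 to 4 days. Growing oocytes GO1 (30 to 45 µm), GO2 (50 to 55 µm) and GO3 (60 to 65 µm) and full-grown oocytes (FGOs, over 70 µm) were taken from mice of 3 to 4 weeks. There were 46 NGOs, 51 GO1, 26 GO2, 44 GO3 and 56 FGOs in 4 libraries, which are labelled as batches. As cell names do not tell the libraries apart, each stage counts as 1 pooled sample. Batch therefore cannot be told apart from stage or from differences between cells. No test between stages was made, intervals cover counting error only, and a CPM is a share of a stage's UMIs and not an amount of RNA per oocyte. Below, fell and rose stand for a difference of at least 2-fold.

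All 12 oocyte marker genes searched, led by *Zp3* and *Gdf9*, were above 10 CPM in each stage, with a summed level of 16657 CPM in GO1 and 17625 in GO2. The 12 granulosa markers summed to 31.7 CPM in GO1 and 31.2 in GO2, the 11 of stroma and theca to 5.46 and 5.61, and the 12 of blood and endothelium to 43.2 and 43.3. Depth differed more than any marker list. A median GO1 cell had 110146 UMIs (22279 to 3898137) and a median GO2 cell 676786 (95108 to 2468893), while the stage sums were 26752883 and 24976634, since 6 GO1 cells held 70.9% of their stage.

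Among the deep GO1 cells, 3 stood apart, and most of the falls past 2-fold in the sums rested on them. Of the 9 GO1 cells with at least 500000 UMIs, 6 had 3191 to 5813 CPM in the 223 genes together, and 3, numbered 21, 15 and 8, had 23156, 20264 and 16731 CPM. Among all GO1 cells such levels were not particular to them, as 3 cells of lower depth also had more than 16731 CPM. These 3 cells held 14.5% of the UMIs of GO1 but 40.8% of those of the 223 genes. When cell 15 was left out, 46 of the 223 genes met the rule, and without all 3 cells 18 did, whereas 222 were still lower in GO2 and the median GO1 to GO2 ratio went from 2.21 to 1.55. Over all genes with at least 10 CPM in GO1, the number that fell went from 223 to 19 without the 3 cells. Because the 3 cells were picked after the data were seen, for their high share of these same genes, their removal has to lower the ratio. Transcripts over 4336.5 bases that are not among the 223 genes took 16.9 to 18.5% of the UMIs of the 3 cells, 11.4 to 13.2% of those of the other 6 deep cells and 12.96 to 21.8% of those of the 24 GO1 cells under 100000 UMIs.

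Per cell, the 223 genes summed to a median of 8129 CPM in GO1 (3191 to 23922) and 3369 CPM in GO2 (2314 to 5428). Of 51 GO1 cells, 43 lay above the highest GO2 cell. The genes were chosen on these same cells, so this separation is partly set by the choice. The groups overlapped: 15 of 26 GO2 cells lay above the lowest GO1 cell, and 5 of the 8 GO1 cells at or below the highest GO2 cell had at least 500000 UMIs. Depth moved with the level within GO1: the 24 cells under 100000 UMIs had a median of 10219 CPM (6826 to 23922), and only 2 GO2 cells were that shallow. Cells of 200000 to 500000 UMIs were 11 in GO1 and 10 in GO2, none of them among the 3 cells. Restricted to them, 213 of the 223 genes were lower in GO2 and 70 met the rule, with a median ratio of 1.86. Of all 6640 genes with 10 CPM in GO1 there, 306 (4.61%) fell. Restricted to cells of at least 1000000 UMIs (6 and 10, with cell 15 among the 6), 85 of the 223 genes met it, with a median ratio of 1.92. Of all 7292 genes with 10 CPM in GO1 there, 120 (1.65%) fell. The cells of both ranges also took part in choosing the genes, so neither is an independent check. The part of depth in the fall was otherwise not tested.

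**Figure D1:**
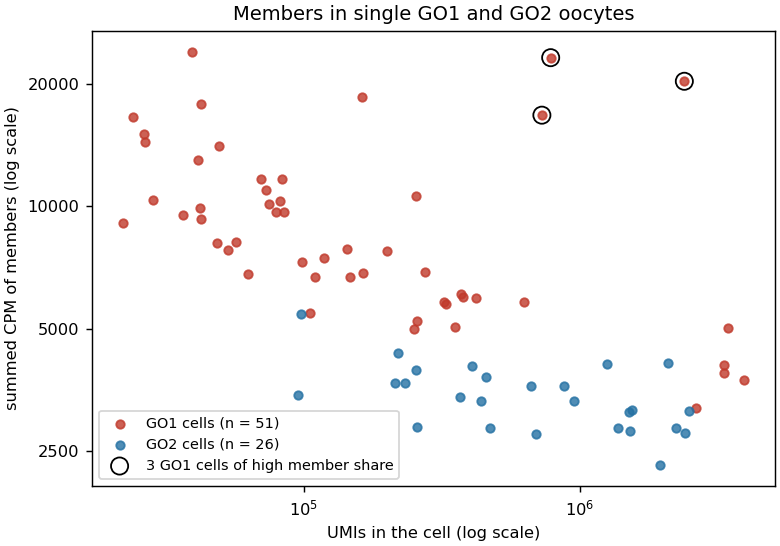
Summed CPM of the 223 genes (vertical, log scale) against the UMIs of each cell (horizontal, log scale) in 51 GO1 and 26 GO2 oocytes, with 3 GO1 cells ringed. Of the 51 GO1 cells, 43 lie above the highest GO2 cell. The genes were chosen on these same cells, so this separation is partly set by the choice. The ringed cells have 16731 to 23156 CPM where 6 others of at least 500000 UMIs have 3191 to 5813.

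Most of the falls lay close to the limit. The GO1 to GO2 ratio of sums was under 2.5 in 178 of the 223 genes, 2.5 to 3 in 31 and 3 or more in 14, with a largest value of 9.68. The 95% counting interval of the ratio lay wholly above 2 in 79 genes. In GO1, 50.7% of the genes had 10 to 20 CPM, 78 genes had 20 to 50, 22 had 50 to 100 and 10 had 100 or more. The set is 3.06% of the genes with 10 CPM in GO1, against 8 genes that rose from GO1 to GO2, or 0.117% of the 6818 with 10 CPM in GO2. Over all 7283 genes the median log2 difference from GO1 to GO2 was -0.11, and 65.7% of them were lower in GO2.

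Each fall was checked in the mean of single-cell CPM, which gives every cell the same weight. In it 192 of the 223 genes fell at least 2-fold and 31 did not, 2 of which were higher in GO2, namely *Cd177* and *Tnc*, an extracellular matrix glycoprotein. The median ratio there was 2.82. The same cells enter this mean, so it is no independent sample, and 743 of the 7283 genes (10.2%) fell by it. With each cell thinned to 20000 UMIs, the share of cells with a UMI was lower in GO2 for 205 of the genes, against 41.7% of all 7283 genes. The median share was 35.3% in GO1 and 19.2% in GO2 for the set, and 49.02% and 53.8% for all genes. These are the cells that chose the genes.

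*Kit*, *Sirt1* and *Slain1* are shown for 3 courses over growth: present in NGO and FGO, low in NGO alone, and low in both. Their promoters are given from 250 bases before to 50 after the start (RefSeq, GRCm38.p6), 5′ to 3′ on the strand of the gene, with capitals at the GC box GGGCGG on either strand. *Kit* lies at chr5:75574737-75575036 on the plus strand, *Sirt1* at chr10:63338986-63339285 on the minus strand and *Slain1* at chr14:103649978-103650277 on the plus strand.
Kit: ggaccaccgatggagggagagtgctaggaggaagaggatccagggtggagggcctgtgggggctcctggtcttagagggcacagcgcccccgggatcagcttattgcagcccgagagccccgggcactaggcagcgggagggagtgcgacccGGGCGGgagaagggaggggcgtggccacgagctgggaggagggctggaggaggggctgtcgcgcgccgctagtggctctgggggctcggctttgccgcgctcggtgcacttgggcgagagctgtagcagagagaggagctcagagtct
Sirt1: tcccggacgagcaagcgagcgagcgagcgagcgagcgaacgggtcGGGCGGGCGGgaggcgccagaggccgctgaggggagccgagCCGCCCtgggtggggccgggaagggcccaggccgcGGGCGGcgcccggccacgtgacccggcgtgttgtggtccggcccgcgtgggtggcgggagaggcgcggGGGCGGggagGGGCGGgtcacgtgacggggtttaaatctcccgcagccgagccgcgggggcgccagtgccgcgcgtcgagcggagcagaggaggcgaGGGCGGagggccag
Slain1: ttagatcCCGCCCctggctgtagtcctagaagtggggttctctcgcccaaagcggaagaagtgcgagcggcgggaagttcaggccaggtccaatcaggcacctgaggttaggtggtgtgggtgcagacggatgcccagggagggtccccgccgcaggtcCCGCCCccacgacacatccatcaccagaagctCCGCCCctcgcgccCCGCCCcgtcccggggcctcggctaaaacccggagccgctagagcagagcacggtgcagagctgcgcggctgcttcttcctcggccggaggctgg
The windows hold 1, 7 and 4 copies of the box, 2 of which in *Sirt1* overlap each other, and their GC content is 69, 79 and 67.7%. None of them has TATAAA, *Sirt1* has 2 copies of CACGTG, and *Slain1* has 1 CCAAT. Of all 27025 promoters in the table, 35.9% hold GGGCGG, so the box is common. Promoters were found for 175 of the 223 genes (78.5%), which is below the 80% set for a comparison with other genes. The values of the promoters found are therefore given only as a description. The box was in 78.9% of those of the set and in 65.05% of those of all genes with 10 CPM in GO1. Their median GC content was 67.7 and 60.7%. Whether the promoters of the set differ from those of other genes was not tested.

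*Kit* (NCBIM37, chr5:75970941-76052747, plus strand), the oocyte receptor of Kit ligand, had 88.3, 104.1, 48.8, 79.6 and 74.7 CPM in the stages from NGO to FGO. Its ratio from GO1 to GO2 was 2.13 (95% interval 1.99 to 2.28). Single GO1 cells ran from 10.1 to 566 CPM with a median of 122.1, and single GO2 cells from 27.4 to 81.8 with a median of 50.7, so that GO2 cells all lay within the range of GO1. The 3 cells had 374, 273 and 228 CPM, above the 46.3 to 78.97 of the other 6 deep GO1 cells, and without them GO1 was at 73.3 CPM and the ratio at 1.501. Of the 28 oocyte identity genes with 10 CPM in GO1, *Kit* alone fell; their median log2 difference was 0.01.

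*Sirt1* (NCBIM37, chr10:62781753-62844452, minus strand), an NAD-dependent deacetylase of histones and other proteins, had 4.88, 34.3, 10.5, 23.6 and 20.8 CPM in the same order. The ratio from GO1 to GO2 was 3.27 (95% interval 2.85 to 3.76). The median cell had 25.2 CPM in GO1 (0 to 187) and 7.93 in GO2 (0 to 36.3). The 3 cells held 53.9% of its GO1 UMIs, and the ratio was 1.76 without them but 2.38 among cells of 200000 to 500000 UMIs, which do not include them.

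*Slain1* (NCBIM37, chr14:104049445-104104124, plus strand), which promotes microtubule growth at plus ends, had 7.14, 137.5, 63.2, 59.95 and 40.9 CPM. It was highest in the smallest growing oocytes, and its FGO level stayed above that of NGO. The median cell had 176 CPM in GO1 (25.2 to 788) and 61.6 in GO2 (32.02 to 224). Its ratio was 2.18 (95% interval 2.05 to 2.31), 1.46 without the 3 cells and 2.09 among cells of 200000 to 500000 UMIs.

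**Figure D2:**
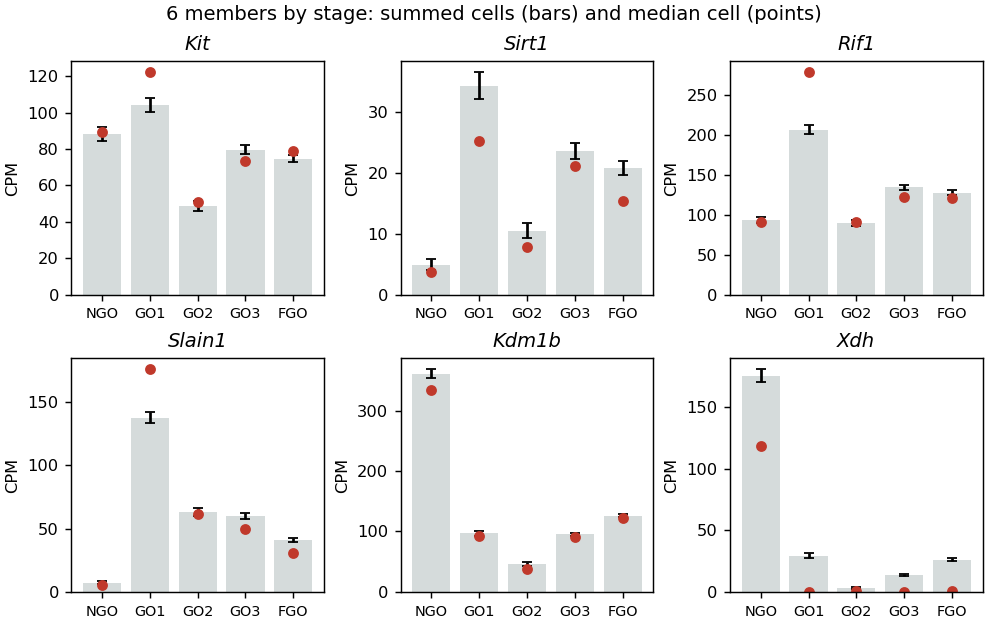
Level of 6 genes (CPM, vertical, from 0) in the 5 stages (horizontal), with bars for summed cells, error bars for the 95% counting interval and points for the median cell. *Kit* drops from 104.1 to 48.8 CPM from GO1 to GO2 and is at 79.6 in GO3, whereas the *Xdh* points are under 1 CPM after NGO although its GO1 bar is at 29.5.

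The largest ratio belonged to *Xdh* (NCBIM37, chr17:74233248-74299522, minus strand), which encodes xanthine dehydrogenase of purine breakdown. It had 176, 29.5, 3.04, 13.8 and 26.1 CPM from NGO to FGO, a ratio of 9.68 from GO1 to GO2 (95% interval 7.64 to 12.4). One GO1 cell held 60.4% of its GO1 UMIs, 23 of 51 GO1 cells had any, and the median GO1 cell was at 0. So in GO1 *Xdh* was high in a few cells, up to 379 CPM. The 3 cells held 1.14% of its UMIs and without them the ratio was 11.2.

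*Abl1*, a non-receptor tyrosine kinase, had 3.65, 16.3, 3.92, 6.40 and 7.53 CPM from NGO to FGO, a ratio of 4.14 from GO1 to GO2 (95% interval 3.32 to 5.21). It too was uneven among cells, with 52.6% of its GO1 UMIs in 1 cell and a median GO1 cell at 0. Without the deepest GO1 cell its ratio was 2.30, and with cells thinned to 20000 UMIs it was 1.22.

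*Rpia*, an isomerase of the pentose phosphate pathway, had 1.11, 11.7, 3.12, 4.58 and 3.00 CPM, a ratio of 3.73, and 2.76 without the 3 cells. *Nmrk1*, a nicotinamide riboside kinase that makes NAD, had 51.2, 11.96, 3.40, 3.31 and 4.35 CPM, and 49.7% of its GO1 UMIs were in 1 cell. Among the other large ratios, *Sav1*, the scaffold of the Hippo kinases, had 0.317, 11.3, 3.32, 3.83 and 2.53 CPM and held 59.3% of its GO1 UMIs in the 3 cells. *Ythdf1*, a reader of m6A in mRNA, had 24.6, 18.6, 5.73, 14.5 and 17.9 CPM and was lowest in GO2. *Rbbp6*, a ubiquitin ligase that takes part in mRNA 3′ processing, followed the same course at 15.99, 16.8, 4.84, 14.5 and 15.3 CPM. Their ratios were 3.25 and 3.46, and 2.49 and 2.11 without the 3 cells. *Ubqln2*, a ubiquitin shuttle, *Osbp*, an oxysterol binding protein, and *Ep300*, a histone acetyltransferase, had ratios of 3.07 to 3.23, which were 1.81 to 1.86 without the 3 cells.

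The 18 genes that met the rule without the 3 cells were picked after their values were seen. Besides *Xdh*, *Abl1*, *Nmrk1*, *Rbbp6* and *Ythdf1* they were *Nab1*, *Spred1*, *Fam120a*, *Cdc5l*, *Stk36*, *Iqcg*, *Ccl2*, *Cd5*, *Cd177*, *Tnc*, *E330020D12Rik*, *5430405H02Rik* and *5730507C01Rik*. *Nab1*, a corepressor of EGR factors, had 22.2 CPM in GO1 and 7.89 in GO2, and *Spred1*, an inhibitor of Ras signalling, had 12.3 and 4.92. At least a 2-fold ratio in 4 settings at once, namely without the 3 cells, in the mean of cells, and in the depth ranges of 200000 to 500000 and of at least 1000000 UMIs, was seen in 5 genes: *Xdh*, *Abl1*, *Rpia*, *Psd3* and *D17H6S56E-5*. Without the 3 cells the last 3 had less than 10 CPM in GO1, and *Abl1* had 7.33 CPM in GO1 at 200000 to 500000 UMIs.

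**Figure D3:**
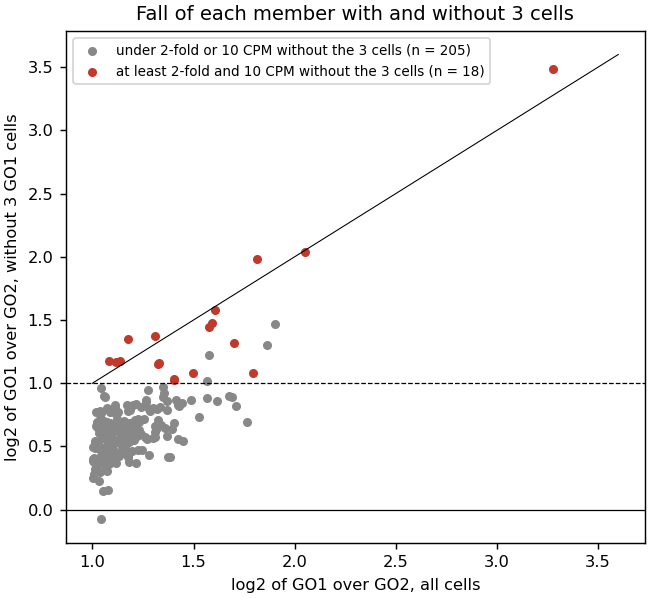
Log2 ratio of GO1 to GO2 for each of the 223 genes with all cells (horizontal) and without 3 GO1 cells (vertical), with the solid line at equality and the dashed line at 2-fold. The 18 red points are at least 2-fold with 10 CPM without the 3 cells, and 1 of the 223 genes (*Rbm15b*, ratio 0.947) lies below 0.

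The genes of highest GO1 level that passed the check had ratios of 2.005 to 2.53. *Ybx3*, a Y-box protein that binds DNA and RNA, had 50.7, 215, 101.8, 100.04 and 81.5 CPM. *Rif1*, which sets replication timing and acts in repair of double-strand breaks, had 94.1, 207, 90.2, 134.9 and 128.2 CPM, and its median cell 279 CPM in GO1 (66.8 to 740) and 91.5 in GO2 (50.6 to 198). *Wnk1*, a kinase that controls chloride transporters, had 114.3, 163, 68.1, 84.04 and 84.7 CPM. With all cells all 3 genes were highest in GO1. Their ratios of 2.12, 2.29 and 2.40 went to 1.38, 1.48 and 1.49 without the 3 cells. Then *Rif1* was higher in GO3 than in GO1 and *Wnk1* was higher in NGO than in GO1, while *Ybx3* stayed highest in GO1. *Pcbp1*, a poly(C)-binding protein, *Ywhag*, a 14-3-3 protein, and *Kbtbd7*, an adaptor of cullin-3 ligases, had 157.7, 114.7 and 106.4 CPM in GO1 and 78.7, 55.1 and 42.1 in GO2.

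Of the genes that failed the check, *Cdc5l*, a core splicing factor, had the highest GO1 level, with 119.8, 178, 59.7, 21.6 and 61.3 CPM from NGO to FGO. Its ratio was 2.98 in the sums and 1.64 in the mean of cells. *Kat14*, a subunit of the ATAC acetyltransferase complex, had 107.8, 120.02, 57.01, 36.2 and 62.04 CPM, and its ratio in the mean of cells was 1.22. Both were lower in GO3 than in GO2. *Fyn*, a Src family kinase, had ratios of 2.07 and 1.84, *Pan2*, a deadenylase, of 2.05 and 1.91, and *Iqcg* of 2.2005 and 1.44.

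Gene lists were searched by symbol, so they miss genes of other names and describe no pathway in full. Chromatin and histone modification gave 11 of the 170 genes tested (6.47%), beside 3.06% of all genes, with a median log2 difference of -0.27 for the list and -0.11 for all genes. They were *Sirt1*, *Ep300*, *Kdm1b*, *Kat14*, *Arid2* and *Arid3b*, *Brpf3*, *Ino80*, *Ncoa2*, *Setd1a* and *Trrap*, and 9 of them passed the check. *Kdm1b*, the H3K4 demethylase that oocytes need to methylate imprinted genes, had 361, 96.9, 46.2, 95.2 and 125.96 CPM, and its GO1 to GO2 ratio was 2.10 (95% interval 1.96 to 2.25), or 1.33 without the 3 cells. *Arid2*, a subunit of the PBAF remodeller, had 11.3, 48.03, 21.8, 24.4 and 17.4 CPM. Without the 3 cells, the 11 ratios ran from 1.29 to 1.81, none reached 2, and the median log2 difference of the list was -0.07.

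Kinases and phosphatases gave 11 of 180 (6.11%, list median -0.22), which take in *Tgfbr3* by its name, a gene also counted among the receptors. *Jak2*, which transmits cytokine signals, had 10.5, 85.7, 38.9, 42.1 and 28.1 CPM, and *Ppp4r2*, a regulatory subunit of phosphatase 4, had 20.95, 87.4, 43.4, 56.2 and 46.01 CPM. With all cells both were highest in GO1. Without the 3 cells their ratios of 2.203 and 2.01 were 1.58 and 1.21, and *Ppp4r2* was higher in GO3 than in GO1. *Abl1* and *Stk36* alone of the 11 kept 2-fold without them. Receptors, ligands and adhesion proteins gave 10 of 174 (5.75%, list median -0.13). Among them *Cdh1*, the cadherin of oocyte and granulosa cell contacts, had 21.4, 66.8, 30.3, 29.4 and 22.1 CPM, *Itga6*, a laminin receptor subunit, had 8.49, 54.5, 25.6, 26.9 and 21.1, and *Bmp6*, an oocyte ligand of the TGF-beta family, had 16.7, 52.8, 26.3, 26.5 and 21.2. With all cells all 3 genes were below 1/2 of GO1 in FGO. Without the 3 cells their GO1 levels were 46.5, 36.5 and 37.2 CPM, and *Cdh1* alone of these genes was still below 1/2. *Ccl2*, a chemokine, was higher again in GO3, with 5.12, 43.02, 20.3, 45.8 and 9.07 CPM, and it is with *Cd5* and *Cd177* among the 3 of the 10 that kept 2-fold without the 3 cells. At 200000 to 500000 UMIs the ratios of *Ccl2*, *Cd5* and *Cd177* were 1.10, 0.891 and 0.487.

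Ubiquitin and proteasome genes gave 13 of 320 (4.06%, list median -0.12), all of which passed the check and none of which kept 2-fold without the 3 cells. *Trim24*, a ubiquitin ligase and coregulator, had 68.7 CPM in GO1 and 32.8 in GO2, and *Smurf2*, a ligase for TGF-beta signalling, had 66.1 and 31.5. Zinc finger proteins gave 7 genes (4.83%, list median -0.27), led by *Zbtb10* at 39.7 and 18.9 CPM. The other transcription factors gave 6 (3.92%, list median -0.15): *Smad4*, the common SMAD, at 50.5 and 25.2 CPM, *Taf5*, a TFIID subunit, at 34.1 and 16.02, *Ahr*, the dioxin receptor, at 18.8 and 7.81, and *Sp1*, *Thra* and *Foxk1*. RNA processing gave 8 of 260 (3.08%, list median -0.16), but the list leaves out *Cdc5l*, *Cwc22*, *Pan2*, *Rbbp6* and *Pcbp1*, so its share is not that of all RNA processing genes. In it *Lsm14b*, a component of repressed mRNPs, had 41.7, 80.6, 35.6, 37.1 and 29.4 CPM, and *Eif2s3x*, an X-linked subunit of eIF2, had 46.2, 23.4, 11.01, 16.1 and 19.5.

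The remaining lists were near or below the share of all genes, or had few genes tested. Solute carriers gave 3 of 95 (*Slc12a2*, *Slc12a5* and *Slc18a2*, the last also among 5 granulosa genes tested), cytoskeleton and motors 5 of 186, which take in *Ankrd44* by its name, and membrane traffic 5 of 219. The list of meiosis, cell cycle and DNA repair symbols gave 3 of 182, *Ccnyl1*, *Cdc5l* and *Cdk13*, and does not hold *Rif1* or *Lig4*, a DNA ligase, which are in the set. In membrane traffic, *Rab21*, a GTPase of early endosomes, had 10.6, 76.7, 29.7, 34.4 and 24.4 CPM. The lists of ribosomal proteins (0 of 84 tested, list median -0.22), clustered histones (0 of 11) and immediate early and heat shock genes (0 of 9) gave none. That of energy metabolism (list median -0.01) gave none either, though *Rpia* and *Acad11*, an acyl-CoA dehydrogenase, are metabolic enzymes of the set. Oocyte families gave 2 of 61, *E330020D12Rik* and *E330023G01Rik*, whose related copies may share reads, as may those of *Khdc1a*.

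Before and after GO1 the set divided into courses. NGO was at 1/2 of GO1 or less in 65.5% of the 223 genes, against 24.1% of all genes with 10 CPM in GO1, and at least 2-fold above GO1 in 10 genes, against 16%. GO1 was the highest of the 5 stages in 185, against 28.4%. These counts reuse the GO1 sum that chose the genes, so they are partly set by the choice. Without the 3 cells NGO was at 1/2 or less in 45.7% and GO1 highest in 54.7%, against 21.6% and 22.96%. A comparison that uses neither chosen stage is that of NGO and FGO: 66 of the 223 genes (29.6%) were at least 2-fold higher in FGO, against 14.7%, and 10 were at 1/2 of NGO or less, against 8.94%.

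After GO2 most of the set was higher again but below GO1. GO3 was above GO2 in 199 of the 223 genes, against 60.7% of all, and GO2 was the lowest stage in 78, against 26.8%; both reuse the GO2 sum. GO3 was at 1/2 of GO1 or less in 55, against 2.5%, and FGO in 97, against 9.76%. FGO was above GO3 in 77, against 53.2%, a count that uses neither stage of the rule. FGO was at or above GO1 in 16, against 47.4%. These counts of GO3 and FGO against GO1 reuse the GO1 sum that chose the genes, so they are partly set by the choice. Without the 3 cells FGO was at 1/2 of GO1 or less in 30 of the genes, against 7.22%. The summed level of the set was 4712, 7202, 3202, 4203 and 4140 CPM from NGO to FGO, and without the 3 cells that of GO1 was 4992 CPM.

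By NGO and FGO together, 88 genes were at 1/2 of GO1 or less in both, which is 39.5% of the set and 8.65% of all genes, with medians of 5.95, 29.5, 14.3, 15.9 and 12.3 CPM from NGO to FGO. *Slain1*, *Ybx3*, *Pcbp1* and *Kbtbd7* belong here. All courses in this grouping are set against the GO1 sum that chose the genes, so their shares are partly set by the choice. In 58 genes (26.01% of the set, 15.5% of all) NGO was low but FGO was not, as in *Rif1*, *Ankrd44*, a subunit of phosphatase 6, and *Khdc1a*, with 28.2, 75.3, 33.7, 45.0 and 66.2 CPM. In 68 neither was low, as in *Kit*, *Wnk1* and *Ywhag*, a share of 30.5% against 74.7% of all genes. The 9 genes present in NGO and low in FGO (4.04% against 1.11%) had 12.5, 15.6, 7.29, 9.41 and 7.06 CPM as medians and hold *Lsm14b* and *Nlk*, a kinase. The 10 genes that were at least 2-fold higher in NGO than in GO1 take in *Kdm1b*, *Xdh* and *Nmrk1*. *E330020D12Rik* had 542, 42.4, 16.9, 32.5 and 166 CPM, and *Cwc22*, a splicing factor that loads the exon junction complex, had 477, 24.9, 12.1, 24.3 and 94.03.

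**Figure D4:**
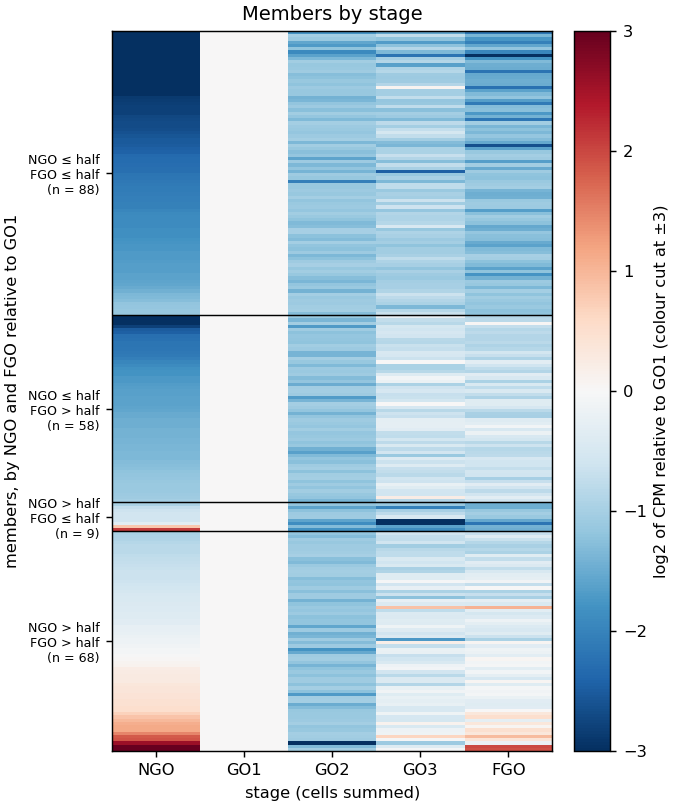
Colour shows log2 of the CPM relative to GO1 for the 223 genes (rows) in the 5 stages (columns), grouped by whether NGO and FGO were at 1/2 of GO1 or less. GO2 is below GO1 in every row because the genes were chosen so, and the groups hold 88, 58, 9 and 68 genes from top to bottom.

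The set had long transcripts. In the annotation of NCBIM37, 210 of the 223 genes had a coding transcript, and the longest one had a median of 4674 bases (quartiles 3582 and 6625), against 2897 (1818 and 4337) over all genes with 10 CPM in GO1. Coding sequence and 3′ untranslated part were both longer, at medians of 2448 and 1821 bases against 1302 and 1006. Genes were put in 4 length classes of near equal size. In the longest class 7.83% of genes belonged to the set, and in the shortest 0.308% (5 of 1622). Without the 3 cells the classes were drawn anew, over the genes then at 10 CPM in GO1. In them 0.445% (7 of 1572) of the longest class and 0.127% (2 of 1573) of the shortest fell. With all cells, GO1 level moved with length, from a median of 83.1 CPM in the shortest class to 34.4 in the longest. Among genes of 10 to 50 CPM in GO1, in classes drawn over these genes alone, the shares were 11.4% in the longest and 1.33% in the shortest. Length went with the shift of all genes as well, with a median log2 difference from GO1 to GO2 of 0.02 in the shortest class and -0.38 in the longest, and of -0.01 and -0.15 without the 3 cells. *Rif1*, with a transcript of 8502 bases, and *Ep300*, with 8749, are of the longest class, and *Slain1*, with 2863, is not. GC content of the 3′ untranslated part had a median of 40.9% in the set and 43.4% over all. How transcript length enters the counts was not tested.

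**Figure D5:**
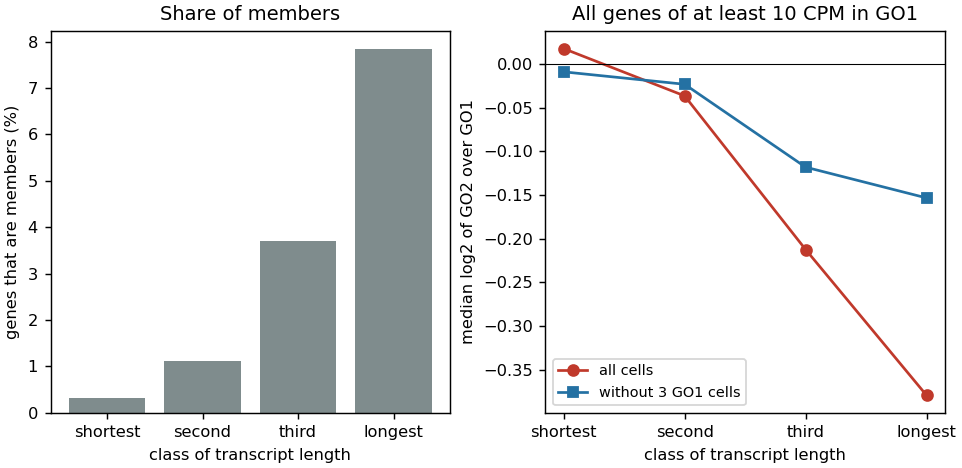
Share of genes that belong to the set (left, percent, bars from 0) and median log2 of GO2 over GO1 of all genes with 10 CPM in GO1 (right), by class of transcript length. The share goes from 0.308% in the shortest class to 7.83% in the longest. The median goes from 0.02 to -0.38 with all cells and from -0.01 to -0.15 without 3 GO1 cells. Without these cells the classes were drawn anew, and 0.127% of the genes fell in the shortest and 0.445% in the longest.

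At the fold limit, the last genes taken were *Bag6*, *Bmp6* and *Smad4*, at ratios of 2.00165, 2.00342 and 2.00376, and the first left out were *Kmt2c*, *Dgkd* and *Rad21*, at 1.99884, 1.9985 and 1.99567. A further 206 genes had ratios of 1.8 to 2. At the CPM limit, *Bag6*, *D17H6S56E-5* and *Brpf3* were taken at 10.02, 10.06 and 10.13 CPM, and *Atp7a*, *Gpr137* and *Hnrnpa0* were left out at 9.98, 9.94 and 9.94.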

How the data were processed

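Single oocytes were sequenced by RNA-seq with UMIs. The authors assigned reads to cells, trimmed and mapped them (Tophat, mm9 transcriptome) and removed duplicates by UMI. They deposited raw counts of UMIs per gene and cell for cells with more than 3000 genes and 20000 to 4000000 transcripts. Cells with a high ratio of ERCC spike-ins, which are added control RNAs, had also been removed. The strand setting of the counting is not given in the sources used here. Here counts were summed per stage and scaled to 1000000 (CPM). The genes and lists were chosen with earlier results of these data known. Genes named are those with the largest ratio, those with the highest GO1 CPM in the set, in each list and in each course, those nearest the limits, and, chosen after their values were seen, those that met the rule without 3 cells, that kept 2-fold in 4 settings or whose direction turned, and single members of the lists. Intervals at 95% are exact and cover counting error only. Alternatives were TMM factors (edgeR 4.0.16), median of ratios (DESeq2 1.42.0), means over cells, thinning, equal cell numbers and other limits, besides others on single cells and depth that were added after the data were seen. Some names that a list pattern took in by mistake, such as *Rps6ka6* among ribosomal proteins, were removed after the values were seen. Others, such as *Tgfbr3* among kinases, were left in. Counting and intervals were tested on simulated stage sums with counting error alone. The simulation held no single cells and no uneven depth, so it cannot show how the calls hold against differences between cells. Positions and transcripts are from GENCODE vM1 of NCBIM37, the build mm9, and promoters from RefSeq of GRCm38.p6. Python 3.11.15, pandas 2.3.3 and R 4.3.3 were used. The genomic DNA samples of the series were not analysed here. One gene that is included in the counts of the set is itself not reported here.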

Additional observations from a re-analysis of the deposited data

How the results depend on the processing

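Counts of genes are given here as a percent of the 223 genes of the set. The number of genes that fell moved with most settings: to 45.3% with TMM factors, 36.8% with the median of ratios, 407% (908 genes) in the mean over cells, 515% (1149) with cells thinned to 20000 UMIs, 390.1% (870) with 26 cells drawn from each stage, 267% (596) without the 10 deepest cells of each stage, 160.1% (357) without the deepest GO1 cell, and, in settings added after the data were seen, 21.5% (48) without cell 15, 8.52% (19) without the 3 cells and 53.8% with cells of at least 1000000 UMIs. It was 465% (1038) at 1.5-fold, 6.28% (14) at 3-fold, 1209% (2695) with no minimum and 14.3% (32) at 50 CPM. Of the 223 genes, 45.3% met the rule with TMM factors, 36.8% (82) with the median of ratios, 20.6% (46) without cell 15, 8.07% (18) without the 3 cells, 31.4% (70) at 200000 to 500000 UMIs, 38.1% (85) at 1000000 or more and 42.6% (95) in the median cell. TMM factors and the median of ratios moved the median log2 difference of all genes from -0.11 to 0.05 and 0.08. Each changes the ratios of all genes by 1 common factor, too small to turn a 2-fold fall. All 223 genes therefore had to stay lower in GO2 with them. FGO was at 1/2 of GO1 or less in 23.3% without cell 15, 13.5% without the 3 cells and 21.1% at 1000000 UMIs or more, from 43.5%. The direction turned in 10 of 81 named genes, on the log2 scale of GO1 over GO2: without the 10 deepest cells in *Cd177* (-1.62), *Stk36* (-0.73), *Map1s* (-0.26), *Cd5* (-0.19), *Kat14* (-0.16) and *5730507C01Rik* (-0.13), at 200000 to 500000 UMIs in *Rbm15b* (-1.42), *Cd177* (-1.04), *5730507C01Rik* (-0.38), *Smad4* (-0.25) and *Cd5* (-0.17), in thinned cells in *Foxk1* and *Cd5* (both -0.46), in the mean over cells in *Cd177* (-0.22) and *Tnc* (-0.16), and without the 3 cells in *Rbm15b* (-0.078). Some of the 81 genes were named because they turned, so this count is partly set by the choice. It also covers named genes only. Of all 223 genes, 213 were lower in GO2 at 200000 to 500000 UMIs and 215 in thinned cells. The cause of the turns was not tested. No paired analysis was possible because each stage is 1 pooled sample and no result comes from a test.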
